A study of Mus musculus with 24 samples.

Results

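The genes described here are the cytosolic translation initiation and elongation factors of the mouse, measured in serotonin neurons and in the tissue around them, with and without the RNA-binding protein CELF6. They were chosen by symbol: every gene in the count files whose name begins with Eif1 to Eif6 or with Eef1 or Eef2, apart from Eif2s3x, Eif2s3y and Eif1ax. The rule gave 60 of 24062 genes and used no measured value. The animals were Celf6 knockout (KO) or wild-type (WT) mice at postnatal day 9, and the tissue was the part of the brain just behind the thalamus with the cortex removed. All animals carried a TRAP allele specific to serotonin cells, whose driver and mouse strain are not given in the sources used here. TRAP (translating ribosome affinity purification) pulls down tagged ribosomes of 1 cell type, so TRAP RNA is the ribosome-bound RNA of the targeted cells, and input is the total RNA of the same kind of tissue. The libraries used numbered 5 KO TRAP, 5 WT TRAP, 5 KO input and 3 WT input, with replicates 1 to 3 sequenced in run 1 and replicates 4 and 5 in run 2. WT input 3 of the labels differed from WT input 2 by no more than the repeat runs of 1 library differed, so both were summed and counted as 1 sample, called 2/3.

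Translation of most mRNAs begins when the initiator tRNA, carried to the small ribosomal subunit by eIF2 and helped by eIF1, eIF1A, eIF5 and eIF3, meets an mRNA whose cap is held by eIF4E, eIF4G and the helicase eIF4A. The ribosome scans to the start codon, the large subunit joins with eIF5B, and eEF1A and eEF2 then drive each step of elongation, with the eEF1B subunits recharging eEF1A with GTP. Supply of these factors is itself often regulated by translation: many of their mRNAs, like those of ribosomal proteins, begin with a run of pyrimidines at the cap (a 5′ TOP motif), through which mTORC1 and LARP1 govern their loading onto ribosomes.

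The start regions of some members are shown because this motif lies there. RefSeq (GRCm38.p6) gave at least 1 transcript start for 46 of the 60 members. Each sequence below runs from 15 bases before the annotated start through the first 15 bases of the transcript, 5′ to 3′ on the gene's strand, and capitals mark its longest run made only of C and T.
Eif3f (chr7:108934400-108934429, plus strand): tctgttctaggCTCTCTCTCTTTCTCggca
Eef1a1 (chr9:78481710-78481739, minus strand): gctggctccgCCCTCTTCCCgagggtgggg
Eif3l (chr15:79075208-79075237, plus strand): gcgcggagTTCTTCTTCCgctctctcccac
Eef1b2 (chr1:63176816-63176845, plus strand): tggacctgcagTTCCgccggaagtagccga
Eif1 (chr11:100319934-100319963, plus strand): gcgCTggcgtcacaggggcggctatataag
The run crossed the start in Eif3f (15 bases), Eef1a1 and Eif3l (10 bases each), and measured 4 bases in Eef1b2 and 2 in Eif1. For Eif1 the RefSeq start lay upstream of the first exon base in the annotation used for counting (chr11:100319996). A run of at least 8 bases made only of C and T, searched on the gene's own strand, was present in 11 of the 61 starts of members (18%), in 27 of 71 starts of cytosolic ribosomal protein genes (38%) and in 3943 of 32851 starts of all genes (12%). Starts of 1 gene count separately, as in Eif4enif1, and the longest run among members, 19 bases, was in Eif2b5. Of the 10 members regarded by textbooks as 5′ TOP mRNAs, 6 had a RefSeq start. Such a run was present in 2 of these 6 starts, those of Eif3f and Eef1a1. Eef2, Eif3a, Eef1b2 and Eif4b had longest runs of 2, 3, 4 and 7 bases. A match is a description of these letters, since the start in use in this tissue was not measured. Members with no start in the table were Eef1d, Eef1g, Eif1a, Eif2b3, Eif3e, Eif3h, Eif3i, Eif3j2, Eif4e1b, Eif4e3, Eif4ebp1, Eif4ebp3, Eif4g2 and Eif6.

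The files used held 3390423 to 6861963 counts each. The WT input library of replicate 4, called an outlier by its submitters, was left out, as were the repeat runs of replicate 3. Celf6 itself stood at 114, 21.4, 56.6, 26.9 and 36.6 CPM (counts scaled to a common library total) in KO TRAP 1 to 5, and at 149, 186, 169.8, 116 and 84.8 CPM in WT TRAP 1 to 5. KO TRAP 1 thus lay within the WT TRAP range. In input it was 14.9, 22.2, 17.1, 4.78 and 17.1 CPM in KO 1 to 5 and 33.2, 15.5 and 103 CPM in WT 1, 2/3 and 5, so the groups overlapped there too, and the labels do not say which exons the knockout lacks. Summed markers of serotonin neurons reached 3959 to 10049 CPM in TRAP and 157 to 262 CPM in input, and 7 of 8 rose. Of 8 oligodendrocyte lineage markers 5 fell, with sums of 936 to 4927 CPM in TRAP and 4578 to 11616 CPM in input, and of 8 astrocyte markers 3 fell. RNA of other cells was thus lower in TRAP but present, and its part in the results below was not tested.

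Per length, the elongation factor Eef2 and the scaffold Eif4g2 had the highest level among the members in both kinds of RNA, by the reads counted. RPKM (CPM divided by the kilobases of exon) is used for all comparisons of level between genes. Reads that map to several places were not counted, so members with near-identical copies elsewhere in the genome may rank too low. The size of this loss was not measured. Eef2, the translocase that moves the ribosome by 1 codon, stood at 362 ± 86.2 RPKM in TRAP (SD, n = 10) and 308 ± 64.1 in input (SD, n = 8). Eif4g2, an eIF4G relative that does not bind eIF4E, stood at 302 ± 97.5 RPKM in TRAP and 249 ± 79.97 in input. Both differed from each other by less than their spread in either kind of RNA. In TRAP they were followed by Eif3f (273 ± 141 RPKM), Eif3i (245 ± 77.7), Eef1a1 (238 ± 120.2), Eef1b2 (204 ± 97.8), Eif5a (184 ± 39.3) and Eif3k (178 ± 100.3), none of which differed from its neighbours beyond its SD. In input the order after the first pair was Eif3i (174 ± 49.99 RPKM), Eif5a (161 ± 29.5), Eef1a1 (150.1 ± 10.96), Eif3f (144 ± 24.1), Eif3g (134 ± 31.5) and Eif4h (122 ± 35.4), and neighbours in this order differed by less than the larger of their SDs. Eef1b2 came 17th with 70.2 ± 14.6 RPKM. Eif3j1 and Eif3j2 were listed at 0 in every library. Each shares at least 99.88% of its exon bases with other genes, mostly with the other, and reads in shared exons cannot be assigned to 1 of them.

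**Figure D1:**
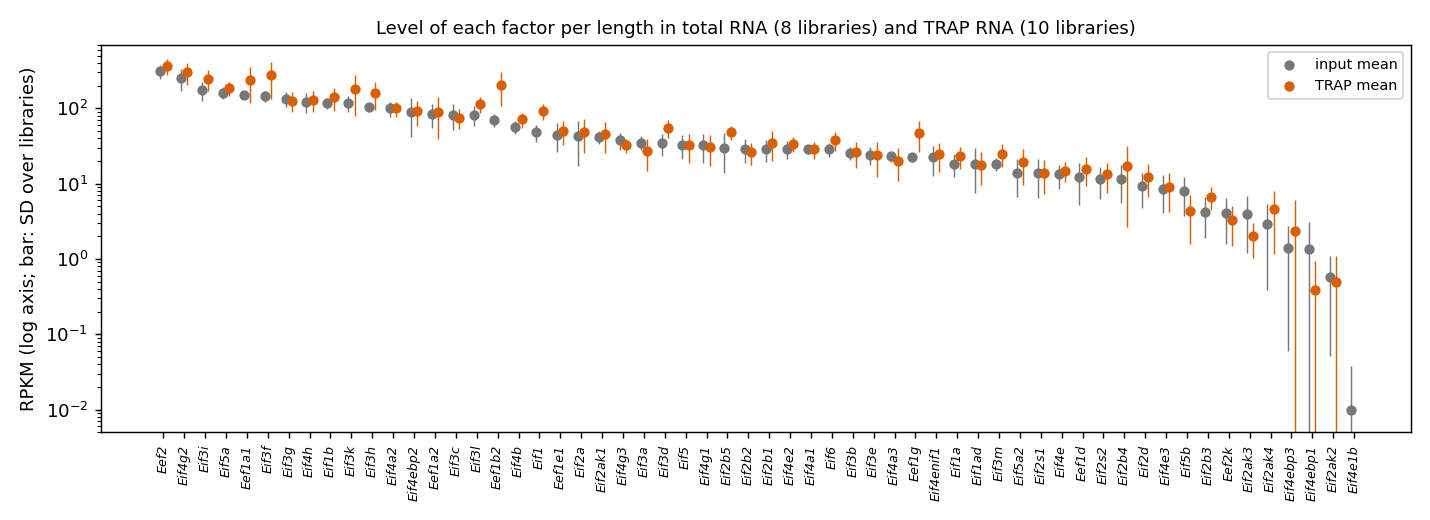
Mean RPKM of each member (log axis) in input (grey, 8 libraries) and TRAP (orange, 10 libraries), with bars of 1 SD over libraries that run off the axis where the SD exceeds the mean. Members are ordered by their input level, and Eef1b2, Eif1 and Eef1g are among those whose TRAP mean lies above the input bar.

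The scarcest members were regulators. Eif4ebp1, an inhibitor that binds eIF4E in place of eIF4G, had 0 to 9 counts per library in TRAP and 0 to 24 in input, and was at 0 in all 4 TRAP and all 3 input libraries of run 2. Its relative Eif4ebp2 stood at 91.5 ± 33.1 RPKM in TRAP and 88.6 ± 46.5 in input. Among the 4 kinases that phosphorylate eIF2 and so lower initiation, Eif2ak2 (PKR, activated by double-stranded RNA) was lowest, at 0.490 ± 0.612 RPKM in TRAP and 0.579 ± 0.527 in input. Eif4e1b, an eIF4E relative, had 2 counts in WT input 2/3 and 0 elsewhere.

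Between TRAP and input, 4 members rose and 0 fell among the 57 that passed the filter on low counts, by edgeR's quasi-likelihood test at an adjusted p below 0.05. The 4 were the eEF1B subunits Eef1b2 and Eef1g, the start codon factor Eif1 and the eIF3 subunit Eif3f. Of all 14261 genes tested, 2.41% rose and 2.31% fell. Unadjusted p was below 0.05 for 11 members and for 2708 of all genes. The median log2 fold change was 0.19 over the members, with 43 above 0 and 14 below. Over all genes tested it was 0.02, with 51.6% above 0. By mean log2 CPM, the median difference was 0.28 for the 30 members with under 2500 exon bases and 0.02 for the 27 longer ones. Over all genes these medians were 0.04 and −0.03. The 4 called members had 1211 to 1933 exon bases, and the part of length in their calls was not tested. The counts are relative to the library total, so fewer cells of a type and less RNA per cell cannot be told apart in either kind of RNA.

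**Figure D2:**
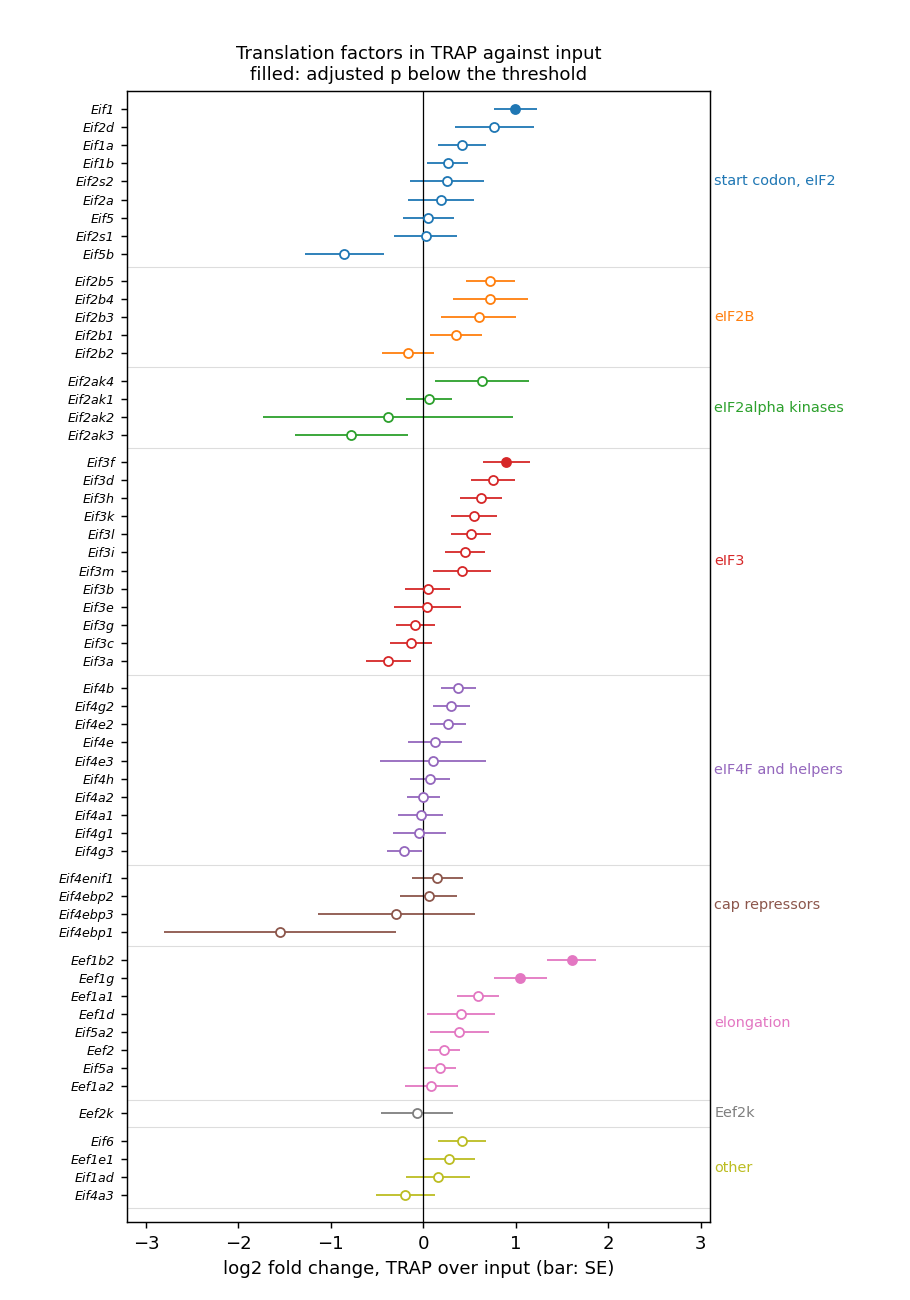
Log2 fold change of TRAP over input with its standard error for the 57 members tested, grouped by role and sorted within each role. Filled points mark the 4 members past the threshold, and all 8 elongation factors lie to the right of 0.

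Eef1b2 (chr1:63176831-63180486, plus strand, mm10) encodes the eEF1B subunit that exchanges GDP for GTP on eEF1A. In KO TRAP 1 to 5 it stood at 223, 465, 689.9, 229.9 and 232 CPM, and in WT TRAP 1 to 5 at 189.6, 391, 302, 557 and 658 CPM. In KO input 1 to 5 it was 181, 147, 124, 154 and 148 CPM, and in WT input 1, 2/3 and 5 it was 107, 132 and 92.0 CPM. Every TRAP library lay above every input library, and TRAP libraries spread far more widely than input libraries. Its log2 fold change was 1.61 ± 0.26 (SE), a 3.04-fold difference (edgeR adjusted p = 0.000323). It was the 1 member whose TRAP and input libraries did not overlap, a pattern seen in 0.449% of all genes with TRAP higher and in 0.302% with TRAP lower.

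Eif1 (chr11:100319996-100322096, plus strand, mm10) encodes the small factor that keeps the scanning ribosome from starting at a wrong codon. It stood at 127, 133, 126, 96.3 and 73.3 CPM in KO TRAP 1 to 5 and at 64.8, 138, 114, 103 and 134 CPM in WT TRAP 1 to 5. In KO input 1 to 5 it was 67.3, 70.2, 69.3, 66.2 and 35.1 CPM, and in WT input 1, 2/3 and 5 it was 49.4, 66.6 and 39.7 CPM. WT TRAP 1 was the 1 TRAP library inside the input range. The log2 fold change was 1.00 ± 0.23, or 2.00-fold (edgeR adjusted p = 0.0103). Eif1 has near-identical copies elsewhere in the genome, and reads that map to several places were not counted, so its level is uncertain.

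Eef1g (chr19:8967041-8978180, plus strand, mm10) encodes the subunit that anchors the eEF1B complex. It stood at 42.7, 90.1, 102, 45.3 and 45.8 CPM in KO TRAP 1 to 5 and at 32.9, 86.6, 78.02, 75.8 and 134 CPM in WT TRAP 1 to 5. In KO input 1 to 5 it was 27.9, 37.3, 28.3, 38.7 and 38.6 CPM, and in WT input 1, 2/3 and 5 it was 35.4, 39.6 and 33.8 CPM. WT TRAP 1 again lay inside the input range, and KO TRAP 1, 4 and 5 lay just above it. The log2 fold change was 1.05 ± 0.29, or 2.07-fold (edgeR adjusted p = 0.0338).

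Eif3f (chr7:108934415-108941942, plus strand, mm10) encodes a subunit of eIF3, the scaffold that joins the small ribosomal subunit to the cap complex. It stood at 264, 324, 629, 328 and 291 CPM in KO TRAP 1 to 5 and at 157, 306, 314, 753 and 740.2 CPM in WT TRAP 1 to 5. In KO input 1 to 5 it was 285, 229.7, 167, 242 and 214 CPM, and in WT input 1, 2/3 and 5 it was 184, 204 and 207 CPM. KO TRAP 3 and WT TRAP 4 and 5 were far above the rest, while WT TRAP 1 lay below the input range and KO TRAP 1 inside it. The log2 fold change was 0.90 ± 0.25, or 1.86-fold (edgeR adjusted p = 0.0369).

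The calls of Eef1b2 and Eif1 held with each of the 18 libraries left out in turn, with edgeR adjusted p up to 0.0038 and 0.0494. The call of Eef1g was lost without KO input 1 or 3, WT input 1, 2/3 or 5, KO TRAP 2 or 3, or WT TRAP 2, 3 or 5, with adjusted p of 0.0534 to 0.106, and that of Eif3f without any WT input library, KO input 3, 4 or 5, KO TRAP 3, or WT TRAP 4 or 5, with adjusted p of 0.0614 to 0.131. With the replicate number as a block, edgeR's adjusted p was 0.113 for Eef1g and 0.128 for Eif3f, and 2 members stayed past the threshold, Eef1b2 and Eif1. Within runs, Eef1b2 was higher in TRAP by 1.45 ± 0.30 in run 1 and 1.65 ± 0.25 in run 2 (log2), Eif1 by 0.88 ± 0.29 and 1.14 ± 0.39, Eef1g by 1.07 ± 0.37 and 0.92 ± 0.42, and Eif3f by 0.63 ± 0.28 and 1.13 ± 0.23. Eef1b2 was called in each run alone and Eif3f in run 2 alone, while Eif1 and Eef1g were called in neither run alone, with edgeR adjusted p of 0.139 and 0.0976 for Eif1 in runs 1 and 2. In KO libraries alone none of the 4 was called, and in WT libraries alone Eef1b2 was.

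**Figure D3:**
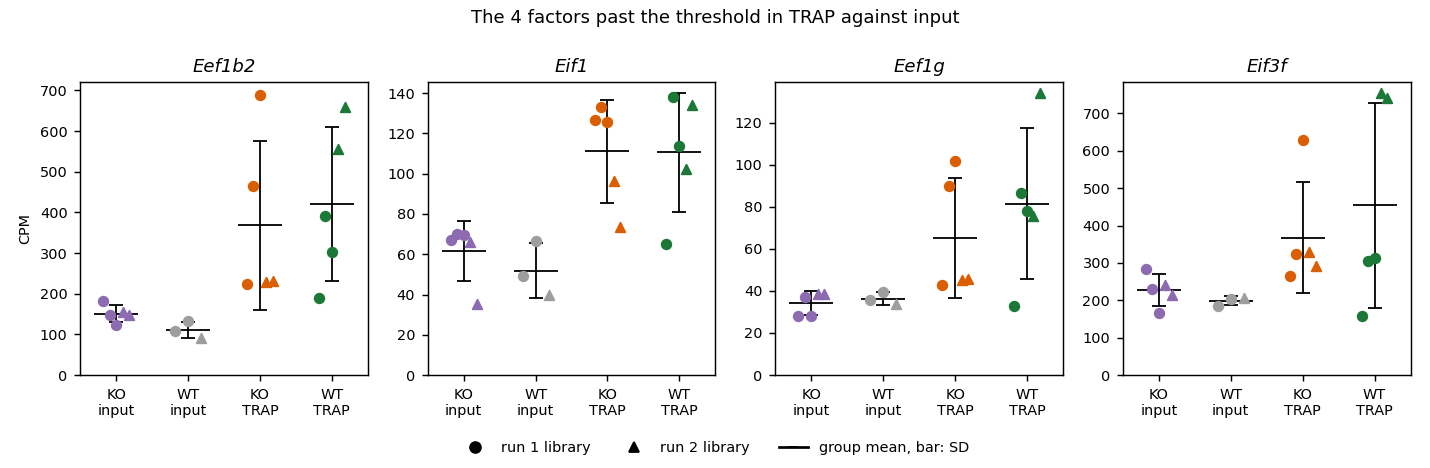
CPM of Eef1b2, Eif1, Eef1g and Eif3f in every library, with circles for run 1, triangles for run 2, and the mean and SD of each group. Input points span a narrower CPM range than TRAP points in each panel, such as 92.0 to 181 against 189.6 to 689.9 CPM for Eef1b2. For Eif1 the ranges are 35.1 to 70.2 CPM in input and 64.8 to 138 CPM in TRAP, which are similar relative to the level.

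The other elongation factors did not pass the test over all libraries. All 8 had a fold change above 0, with a median log2 of 0.40. Eef1a1, which delivers aminoacyl-tRNA to the ribosome, gave 0.60 ± 0.23 (edgeR adjusted p = 0.141), and 0.95 ± 0.23 in run 2 alone, where it passed (adjusted p = 0.0190). Eef1d, the third eEF1B subunit, gave 0.41 ± 0.37, and Eef2 0.22 ± 0.17. Eef1a1 was at 224 to 880.3 CPM over TRAP libraries and at 241 to 303 CPM over input libraries, so its TRAP libraries spread on both sides of input. Eef2k, the kinase that inhibits eEF2, gave −0.07 ± 0.39.

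The 12 eIF3 subunits tested had a median log2 fold change of 0.44, with 9 above 0 and 6 at an unadjusted p below 0.05. After Eif3f the highest were Eif3d, the subunit that can itself bind the cap (0.76 ± 0.24, edgeR adjusted p = 0.0715), Eif3h (0.62 ± 0.23, adjusted p = 0.115), Eif3k (0.55 ± 0.25), Eif3l (0.52 ± 0.22) and Eif3i (0.45 ± 0.21). For Eif3d the adjusted p was 0.0264 with DESeq2. With edgeR and WT input 2 and 3 kept apart it was 0.0294, but that setting counts 1 sample as 2. The subunits Eif3a (−0.38 ± 0.25), Eif3c (−0.13 ± 0.23) and Eif3g (−0.08 ± 0.21) lay below 0. No difference between subunits was tested.

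Factors of the ternary complex and the start codon had a median of 0.26, with 8 of 9 above 0 and Eif1 as the 1 call. The lowest of them was Eif5b, the GTPase that joins the subunits, at −0.85 ± 0.43 (edgeR adjusted p = 0.275). In TRAP it stood at 46.4, 6.04, 43.8, 42.3 and 55.2 CPM in KO 1 to 5 and at 70.3, 6.58, 15.5, 31.5 and 20.3 CPM in WT 1 to 5. In input it ranged from 20.3 to 115 CPM, so the kinds of RNA overlapped widely. The eIF2B subunits, which recharge eIF2 with GTP, had a median of 0.60 with 4 of 5 above 0, led by the catalytic Eif2b5 at 0.73 ± 0.27 (edgeR adjusted p = 0.126), and 0 passed. Without KO input 1, where it was at 171 CPM against 27.9 to 78.4 CPM in the other input libraries, Eif2b5 passed (0.97 ± 0.25, edgeR adjusted p = 0.0246). Eif2b2 gave −0.17 ± 0.28, and outside these groups Eif4a3, a helicase of the exon junction complex, gave −0.19 ± 0.32.

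Members of the cap-binding complex lay near 0. Their median was 0.09 over 10 tested, with values of 0.13 ± 0.29 for the cap-binding Eif4e, −0.04 ± 0.29 for the scaffold Eif4g1, −0.03 ± 0.24 for the helicase Eif4a1 and 0.00 ± 0.18 for its paralog Eif4a2. The repressors had a median of −0.12 over 4 and the eIF2 kinases of −0.16 over 4, with wide errors such as −1.55 ± 1.26 for Eif4ebp1 and −0.78 ± 0.61 for Eif2ak3 (PERK). The scaffold Eif4g3 gave −0.20 ± 0.19. None of these 18 members passed edgeR's test or reached an unadjusted p below 0.05.

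The CPM of all 60 members together was 9490 to 11354 in TRAP and 7850 to 9074 in input. This sum rests most on members with many counts, such as Eif4g2 with a mean of 2345 CPM in TRAP and 1930 CPM in input. It was not compared with sums of other sets of genes, so it does not speak for each member. The 10 members regarded by textbooks as 5′ TOP mRNAs had a median log2 fold change of 0.50, with 9 above 0 and 3 risen (Eef1b2, Eef1g and Eif3f). Of all genes tested, 51.6% lay above 0 and 2.41% rose. Cytosolic ribosomal proteins, the main 5′ TOP family, had a median of 0.49 over 69 tested, with 62 above 0 and 2 risen, Rps15 (1.18) and Rpl6 (1.32). Their summed level was 2774, 5445, 7435, 3306 and 3472 CPM in KO TRAP 1 to 5, 3153, 5590, 4967, 7853 and 10416.5 CPM in WT TRAP 1 to 5, and 3216 to 4321 CPM in input. The 6 TRAP libraries with the highest ribosomal protein sum (KO 2 and 3, WT 2 to 5) were also the 6 with the highest Eef1b2 and Eef1g. Both sets share the library total, and the part of this common variation in the calls was not tested.

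Other lists of the pathway gave 1 call between TRAP and input. Of 13 mTORC1 pathway genes tested 1 fell, Tsc2, an inhibitor of mTORC1 (−0.80 ± 0.21, edgeR adjusted p = 0.0221). Of 12 targets of the integrated stress response, which follows eIF2 phosphorylation, 0 passed edgeR's test and 6 had an unadjusted p below 0.05 (2708 of all 14261 genes). Their median was 0.45, but the list was mixed, with 7 above 0 and 5 below. Among the 7 were Atf4 at 0.65 ± 0.20 (edgeR adjusted p = 0.0568) and Atf5 at 1.35 ± 0.44 (edgeR adjusted p = 0.0729). None passed among 20 cytosolic tRNA synthetases (median −0.01), 9 mitochondrial translation factors (0.18), 7 genes of termination and recycling (0.14), 7 of diphthamide synthesis, which modifies eEF2 (0.07), 2 of hypusine synthesis, which modifies eIF5A (0.19), and 5 poly(A)-binding proteins and partners (0.07). Unadjusted p was below 0.05 for 1 tRNA synthetase and 1 diphthamide gene.

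Pairs of paralogs were compared as log2 ratios per length within each library, which leaves the library total out. A loss of reads that map to several places stays in the ratio, so its size above or below 0 is uncertain. For 6 pairs and 3 comparisons, 18 exact permutation tests were made. Eif1b over Eif1, 2 forms of eIF1, was −0.56, 1.11, 0.47, 0.65 and 0.92 in KO TRAP 1 to 5 and 1.27, 0.62, 0.11, 0.98 and 0.22 in WT TRAP 1 to 5. In KO input 1 to 5 it was 1.497, 0.81, 0.91, 1.23 and 1.92, and in WT input 1, 2/3 and 5 it was 1.47, 1.17 and 1.59. TRAP libraries lay mostly lower, with overlap: the mean was 0.58 ± 0.55 (SD, n = 10) against 1.32 ± 0.37 (n = 8), a difference of −0.75 (2-sided exact permutation p = 0.00283, 0.0510 after Benjamini-Hochberg adjustment). The difference was −0.67 within run 1 and −0.89 within run 2.

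Eef1a2, the eEF1A form of neurons and muscle, over Eef1a1 was −1.45 ± 0.46 in TRAP (SD, n = 10) and −0.90 ± 0.54 in input (n = 8), a difference of −0.55 (2-sided exact permutation p = 0.0340, adjusted 0.306). This difference was 0.03 within run 1 and −1.46 within run 2, so it did not hold in both runs. Eif4a2 over Eif4a1 was 1.81 ± 0.28 in TRAP and 1.78 ± 0.35 in input, and Eif4g3 over Eif4g1 was 0.18 ± 0.69 and 0.29 ± 0.33. Eif5a2 over Eif5a was −3.38 ± 0.96 and −3.67 ± 0.80, and Eif4ebp2 over Eif4ebp1 8.20 ± 1.54 and 7.01 ± 2.07, the latter resting on few Eif4ebp1 counts. By exact permutation none of the 18 tests passed after adjustment.

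**Figure D4:**
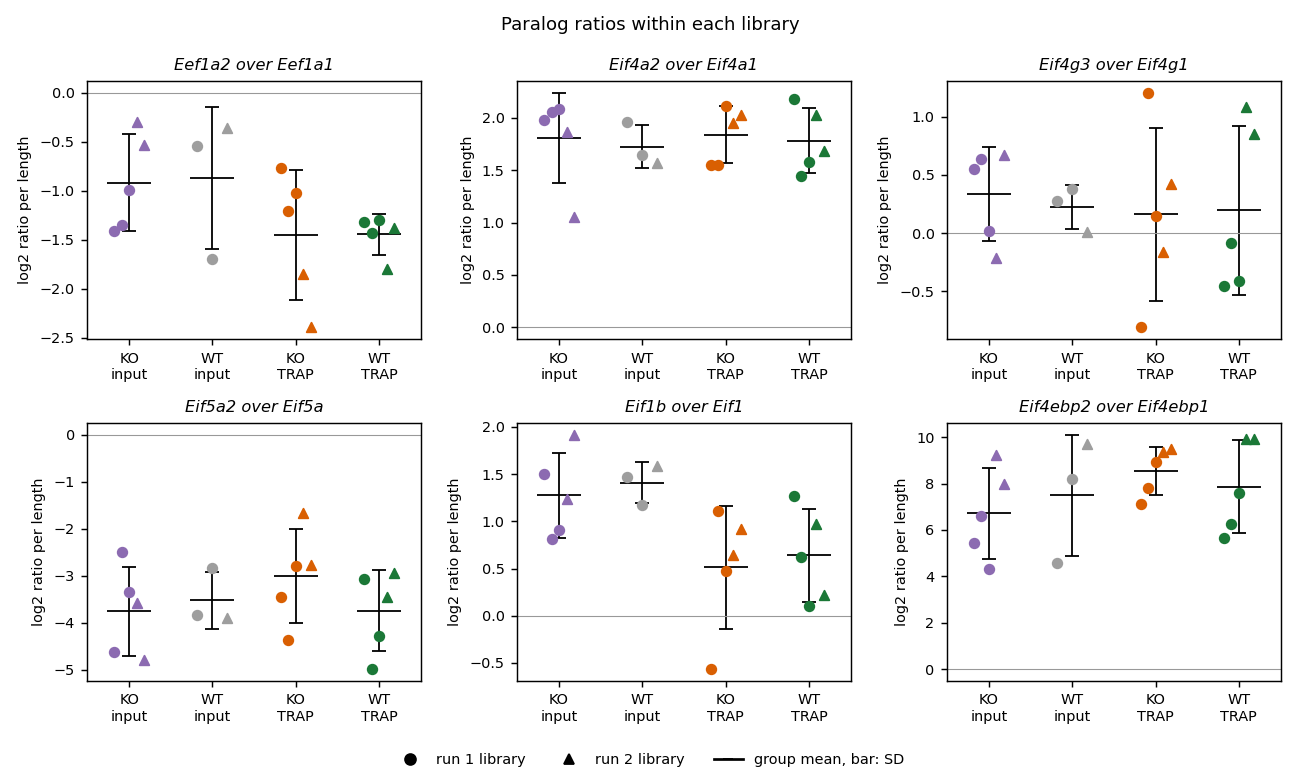
Log2 ratio per length of 6 paralog pairs in every library, with circles for run 1, triangles for run 2, and the mean and SD of each group. KO and WT bars overlap in every panel, and the Eif1b over Eif1 panel shows most TRAP libraries below most input libraries.

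Between genotypes, no member was past the threshold in TRAP, and Celf6 itself was not called either. Celf6 gave a log2 difference KO minus WT of −1.52 ± 0.38 (edgeR adjusted p = 0.9992), so the test at this size did not call the targeted gene. Of 54 members tested in TRAP, 0 were called by edgeR and 0 by DESeq2, 0 had an unadjusted p below 0.05, and the KO and WT libraries of every member overlapped. Among all 12204 genes 0% were called, while 0.32% were higher in every KO library and 0.426% lower. The log2 difference KO minus WT was above 0 in 24 members and below 0 in 30, with a median of −0.04 and an edgeR adjusted p of at least 0.9992 for each. The smallest unadjusted p above 0 belonged to Eif5a2 (0.60 ± 0.35), Eif3c (0.42 ± 0.28), Eif2b3 (0.63 ± 0.44), Eif4g2 (0.39 ± 0.28) and Eif3a (0.51 ± 0.38), and below 0 to Eif2b2 (−0.64 ± 0.39), Eif3g (−0.46 ± 0.30), Eif3k (−0.54 ± 0.37), Eef1e1 (−0.47) and Eif3m (−0.51). By role, 9 of 12 eIF3 subunits and 6 of 8 elongation factors lay below 0, as did 60 of 65 ribosomal proteins, whose median was −0.47 with 0 called and 1 at an unadjusted p below 0.05.

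The runs pointed in different directions. In run 2 alone, with 2 libraries of each genotype, 5 of the 55 members tested passed edgeR's test, against 2.13% of all genes. The log2 difference KO minus WT was −1.41 ± 0.27 for Eef1b2 (edgeR adjusted p = 0.0197), Eif3k gave −1.54 ± 0.33 (0.0299) and Eif3f −1.29 ± 0.26 (0.0252), while Eif4g2 gave 1.26 ± 0.21 (0.0106) and Eif3a 1.48 ± 0.34 (0.0433). Markers of several cell types differed between genotypes in run 2 as well, in both directions. Summed oligodendrocyte lineage markers were at 1839 and 2359 CPM in KO TRAP 4 and 5 and at 4927 and 4573 CPM in WT TRAP 4 and 5. Microglia markers were at 6.77 and 15.6 against 40.9 and 82.2 CPM, and meningeal and choroid plexus markers at 414 and 90.5 against 2439 and 721 CPM. Serotonergic markers were at 7960.2 and 7152 against 6431 and 3959 CPM. Summed GABAergic neuron markers were higher in KO, at 659 and 545 against 426 and 333 CPM, but the list was mixed. Of its 4 genes, Gad2 was higher in KO (572 and 375 against 259 and 181 CPM). Gad1 (61.3 and 59.3 against 93.4 and 68.3 CPM) and Slc32a1 (21.8 and 43.4 against 56.3 and 53.4 CPM) were lower, and Slc6a5 overlapped. Sums of astrocyte and of endothelial and mural markers overlapped between genotypes. Those of glutamatergic and of dopaminergic and noradrenergic markers were lower in KO. The ribosomal protein sums of these libraries, given above, were also lower in KO. In run 1 the summed markers of every cell type list overlapped between genotypes. With 2 libraries of each genotype in run 2 against 3 in run 1, groups lie apart more easily in run 2. The part of these markers in the run 2 calls was not tested.

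In run 1 alone the same 5 members gave 0.66 ± 0.42, 0.14 ± 0.43, 0.66 ± 0.40, −0.15 ± 0.32 and −0.09 ± 0.45 (Eef1b2, Eif3k, Eif3f, Eif4g2 and Eif3a), with an adjusted p of 0.9996, so each lay on the other side of 0. Of the 54 members, 34 (63.0%) had opposite signs in the runs, against 6632 of 12204 genes (54.3%).

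Eif4g2 shows the pattern by library. It stood at 2862, 2330.2 and 1574 CPM in KO TRAP 1 to 3 and at 3103, 2102 and 2374 CPM in WT TRAP 1 to 3. In run 2 it was 3298 and 3147 CPM in KO TRAP 4 and 5 and 1475 and 1184 CPM in WT TRAP 4 and 5. The genotypes overlapped in run 1 and lay apart in run 2. Eif3k ran the other way, with 146.6 and 109.9 CPM in KO TRAP 4 and 5 against 296 and 439.8 CPM in WT TRAP 4 and 5.

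In run 2 the difference between genotypes moved with the length of the gene. Across the 54 members, Spearman's correlation of KO minus WT with exon length was 0.50 in run 2 and 0.00 in run 1, and across all 12204 genes it was 0.39 and 0.00. These are descriptions over genes, which share the same libraries and are not independent. In run 2 the median difference was −0.55 for the 28 members with under 2500 exon bases and 0.21 for the 26 longer ones, against −0.41 for 4446 and 0.23 for 7758 of all genes. The members that passed in run 2 followed this order, with Eif3k, Eif3f and Eef1b2 under 2500 bases and Eif3a and Eif4g2 above. The part of length in these calls was not tested.

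**Figure D5:**
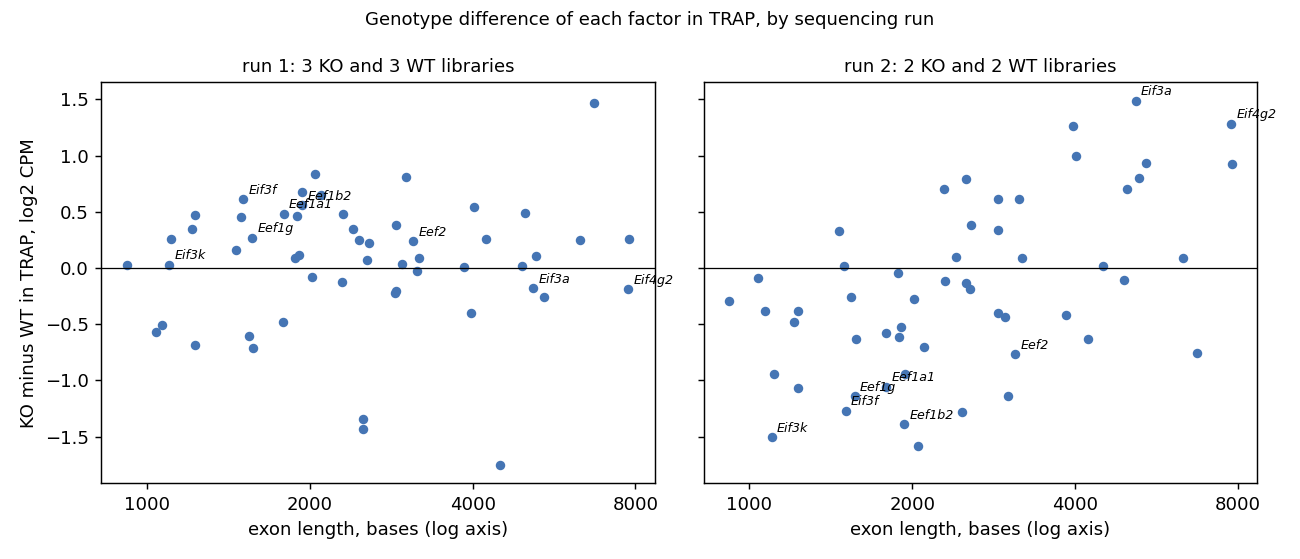
KO minus WT difference in TRAP (log2 CPM) of each member against its exon length (log axis), in run 1 (left, 3 libraries of each genotype) and run 2 (right, 2 of each). Points slope upward with length in run 2, from Eif3k at the lower left to Eif3a and Eif4g2 at the upper right, and show no slope in run 1.

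In input, 0 of 57 members were called by edgeR and 0 by DESeq2, against 0% of 13036 genes, and 1 had an unadjusted p below 0.05. The difference KO minus WT was above 0 in 38 and below 0 in 19, with a median of 0.07. That 1 member was Eif2d, a factor that can deliver tRNA to the start codon without GTP (1.73 ± 0.79, unadjusted p = 0.0447, edgeR adjusted p = 0.9996). It stood at 29.7, 26.4, 32.2, 22.5 and 27.3 CPM in KO input 1 to 5 and at 22.002, 11.3 and 0.593 CPM in WT input 1, 2/3 and 5, the last from 2 counts. Eif2d was the 1 member whose KO and WT input libraries did not overlap, a pattern seen with KO higher in 0.944% of all genes and with KO lower in 1.24%. Next came Eef2k (1.05 ± 0.54) and Eef1b2 (0.46 ± 0.28), both without passing.

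The genotype difference in TRAP minus that in input was called for 0 of 57 members by edgeR and 0 by DESeq2, against 0% of 14261 genes, with 1 unadjusted p below 0.05. This was Eif4ebp3, an eIF4E inhibitor, with 0, 0, 0, 0 and 4 counts in KO TRAP 1 to 5 and 22, 12, 77, 0 and 22 counts in WT TRAP 1 to 5 (unadjusted p = 0.01999, edgeR adjusted p = 1). Its input counts were 1, 13, 1, 18 and 7 in KO 1 to 5 and 2, 8 and 11 in WT 1, 2/3 and 5. Counts this low leave the size of any difference undetermined.

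Isoforms were read from the authors' percent spliced in (PSI), the share of 1 of 2 isoforms at an event. The tables hold 72 splicing events in 21 members and 6 tandem UTR events. In TRAP 33 splicing events of members had enough values, and 0 passed limma's test, with 4 at an unadjusted p below 0.05. Of all 1861 splicing events tested there, 0% passed and 125 had such a p. In input 0 of 28 passed and 1 had such a p, against 0% and 41 of 1154. Of tandem UTR events 0 of 5 passed in TRAP and 0 of 5 in input, with 0 at an unadjusted p below 0.05 in both, against 0.294% of 340 and 0% of 242.

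The smallest p belonged to an Eef1b2 event with a choice of acceptor sites at chr1:63177723 and chr1:63177754 (mm10), 31 bases apart. Its PSI was 9.92%, 8.90%, 8.03% and 10.97% in KO TRAP 1 to 4, without a value in KO 5, and 7.51%, 4.21%, 3.39%, 4.84% and 1.97% in WT TRAP 1 to 5. KO libraries all lay above WT libraries, as in 1.5% of all splicing events tested in TRAP, at 9.46% ± 1.27 (SD, n = 4) against 4.38% ± 2.05 (n = 5), with limma unadjusted p = 0.0132 and adjusted p = 0.554. A second pair of Eef1b2 acceptors, at 63178423 and 63178439, gave 7.36% ± 0.80 in KO (n = 5) and 9.59% ± 1.56 in WT (n = 5), with limma adjusted p = 0.640. The other 2 were skipped exons of Eif4a2 (98.1% ± 1.84 in KO, n = 5, and 96.6% ± 1.02 in WT, n = 4, limma adjusted p = 0.640) and Eif3k (95.9% ± 0.82 and 97.5% ± 0.62, n = 4 each, limma adjusted p = 0.668). The Eif3k libraries did not overlap either, with KO at most 97.03% and WT at least 97.06%, a pattern with KO lower seen in 2.36% of all events tested. The headers do not say which acceptor a high PSI stands for.

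Between the kinds of RNA, the retained introns of the helicases shared no direction, given here as values without a test. Of 8 with values, means were lower in TRAP for some and higher for others. The Eif4a2 intron after the exon at chr16:23111126-23111263 had 1.89% ± 0.71 in TRAP (0.919% to 3.24%, n = 10) and 6.33% ± 4.29 in input (2.22% to 12.8%, n = 8). The high input values came from run 2, at 10.8% and 9.98% in KO input 4 and 5 and 12.8% in WT input 5, against 2.42%, 2.22% and 2.57% in KO input 1 to 3 and 6.27% and 3.61% in WT input 1 and 2/3. Between genotypes in input this was the 1 member event with an unadjusted p below 0.05 (limma adjusted p = 0.958). An Eif4a1 intron had 4.15% ± 2.18 in TRAP (n = 9) and 6.98% ± 1.98 in input (n = 8). In the other direction, another Eif4a2 intron had 4.35% ± 2.57 in TRAP (n = 10) and 2.69% ± 1.68 in input (n = 8). Values overlapped between the kinds for all 3.

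The authors' deposited table marks genes bound by tagged CELF6 in crosslinking and immunoprecipitation (CLIP). Of the 25 members that stand alone in an event, 12 (48.0%) are marked in the authors' deposited table, against 1152 of 4622 genes (24.9%). They are Eef1a1, Eef1b2, Eef1d, Eef1g, Eef2, Eif1, Eif2a, Eif4a1, Eif4a2, Eif4g2, Eif5 and Eif5a, among them 3 of the 4 members that rose in TRAP. For 11 of them the mark in the authors' deposited table rests on enrichment over input alone, and for Eif2a on enrichment over wild-type littermates alone. Marked members were also more abundant, with a median input level of 59.0 RPKM (12 members) against 22.3 RPKM (13 unmarked), and the part of abundance in the marks was not tested. None of the 12 passed the test between KO and WT in either kind of RNA.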

How the data were processed

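Whole-number counts per gene are the authors' own, made with featureCounts 1.4.6-p5 on mm10 without strand and without reads of several map positions, per the file headers. Trimmomatic and STAR stand in the submitters' processing notes without versions. RNA was amplified (Nugen Ovation 2) before NEBNext libraries, per the labels' protocols, so counts are not molecules. PSI values are fractions deposited by the authors and made with MISO, per the series notes. Tandem UTR events did not lie at their genes' mm10 positions, so only their deposited gene names are used.

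The members and all gene lists were chosen with earlier results of these data known. Genes that passed filterByExpr were tested with TMM scaling and the sequencing run as covariate (edgeR 4.0.16, R 4.3.3, quasi-likelihood F test) and adjusted over all of them by Benjamini-Hochberg, threshold 0.05. DESeq2 1.42.0 served as an alternative. Printed CPM are TMM-normalized. Logit PSI, held within 0.01 and 0.99, was compared with limma 3.58.1 where each genotype had at least 3 values. The tests were tried on simulated data. For the count tests these held no difference between runs, so the trial does not show how the tests perform on these libraries. Named members are those called, those with the smallest p in each direction (8 for TRAP against input, 5 otherwise), the 8 highest by level, and others by role. The series notes name 5 brains per genotype without tying numbers to brains, so p-values measure the spread between these libraries.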

Additional observations from a re-analysis of the deposited data

Results flagged for a closer look

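In 33 members named in a comparison, 99 groups of 4 or more libraries were searched for a library far from its group by Dixon's rule, and 5 were found, about as many as the 1 in 20 that chance gives. Eif1 was at 35.1 CPM in KO input 5, against 66.2 to 70.2 CPM in the other KO input libraries. Eif3f was at 629 CPM in KO TRAP 3, against 264 to 328 CPM in the others. Eif4g3, a cap scaffold, was at 279 CPM in KO TRAP 5, against 193 to 207 CPM in the others. Eif5b was at 6.04 CPM in KO TRAP 2, against 42.3 to 55.2 CPM in the others. Eif4ebp3 was at 1.08 CPM in KO TRAP 5 and at 0 in the others.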

How the results depend on the processing

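In TRAP against input, 4 members were called. This count was 2 with the replicate number as a block, 0 in KO libraries alone, 1 in WT libraries alone and 1 in run 1 alone, and 2 to 4 with 1 library left out. It was 5, with Eif3d added, with DESeq2 and with WT input 2 and 3 kept apart, and 4 in run 2 alone (Eef1b2, Eif2d, Eif3f and Eef1a1). All genes called numbered 673, and 1326 with DESeq2, 1065 without a filter, 124 in KO alone, 160 in WT alone, 233 in run 1 alone and 346 to 831 with 1 library left out. In KO against WT in TRAP, 5 members were called in run 2 alone, and all genes called were 11 with DESeq2, 16 without a filter and 264 in run 2 alone. In KO against WT in input all genes called were 6 with DESeq2, 4 without a filter and 0 to 1 with 1 library left out, and for the interaction 4 and 3. The paralog ratio of Eif1b over Eif1 passed after adjustment with WT input 2 and 3 kept apart (1 test called, −0.73, adjusted p = 0.0351 by exact permutation), and 0 to 1 passed with 1 library left out. Keeping WT input 2 and 3 apart, here and for Eif3d above, counts 1 sample as 2. Signs reversed for Eif3c in TRAP against input (KO alone 0.17, run 1 alone 0.12), for Eif2b2 (WT alone 0.16, run 2 alone 0.0267, and −0.30 to 0.0697 with 1 library left out, the latter without WT input 2/3), for Eif4g2 (−0.15), Eif3a (−0.0948) and Eif3k (0.14) between genotypes in TRAP in run 1 alone, for Eef1a2 (0.17) and Eef2 (0.0382) between genotypes in input without WT input 1 (−0.28 and −0.35 without WT input 5), and for Eef1a2 over Eef1a1 in run 1 alone (0.0252). Settings with fewer libraries have less power, and the cause of the other changes was not tested.

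Pairing by replicate number was checked on deviations from the means of each group and run. The correlation of same-numbered libraries was 0.0280 to 0.0680 in 5 KO pairs of TRAP and input and −0.0443 to 0.0235 in 3 WT pairs. It was −0.0226 to 0.0465 in 5 pairs of KO and WT TRAP and 0.128 in 1 pair of KO and WT input. In run 2 the 2 libraries of a group deviate by equal and opposite amounts, so numbers 4 and 5 give the same value. WT input 2/3 stands in 2 of the 3 WT pairs. Differently numbered libraries were not compared, so these values cannot decide whether a number is a pair. Calls from Xist and Y-linked RNA, at a threshold of 5 CPM, were the same in TRAP and input for 5 of 7 numbers. They differed for KO 1 (mixed in TRAP, Xist in input) and WT 5 (Y-linked in TRAP, Xist in input). The series notes do not tie numbers to brains, and the numbers were not treated as pairs. The block changed the calls of Eef1g and Eif3f and no other member's call. Depth limits Eif4ebp1, Eif4ebp3, Eif2ak2 and Eif4e1b, for which few or 0 counts leave no difference detectable.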
